A study of Danio rerio with 11 samples.

Results

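Circadian clock genes were examined in livers of zebrafish larvae at 5 dpf (120 hpf), as 10 genes chosen by name: per1a, per1b, per2, per3, ciarta, clocka, clockb, bhlhe40, bhlhe41 and tefa. All 10 were found among the 32105 Ensembl gene IDs that were counted, and all 10 passed the filter on low counts, as did 15838 IDs in all. The table of gene names gives both per1 genes one symbol and both clock genes one symbol, so the a and b copies could not be told apart by name. They are called here per1-I (ENSDARG00000012499), per1-II (ENSDARG00000056885), clock-I (ENSDARG00000003631) and clock-II (ENSDARG00000011703). The other members are per2 (ENSDARG00000034503), per3 (ENSDARG00000010519), ciarta (ENSDARG00000058094), bhlhe40 (ENSDARG00000004060), bhlhe41 (ENSDARG00000041691) and tefa (ENSDARG00000039117).

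In the vertebrate clock, CLOCK pairs with a BMAL protein and switches on genes that carry E-boxes, among them the period and cryptochrome genes. The period and cryptochrome proteins build up and repress CLOCK and BMAL, which closes a loop of about a day. BHLHE40 and BHLHE41, also called DEC proteins, and CIART, known from mouse, repress the same activators, and TEF is a PAR bZIP factor that acts on D-boxes. Zebrafish tissues, liver included, hold clocks that light can set directly, and light itself induces per2.

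Each of the 11 libraries came from one pool of dissected livers of a single clutch. The hUHRF1 larvae carry Tg(fabp10a:hUHRF1-EGFP)high, human UHRF1 fused to EGFP under the hepatocyte promoter fabp10a, and were picked as EGFP positive, and wild type siblings of the same clutches served as WT. There were 5 hUHRF1 pools (clutches 4, 6, 7, 8 and 9) of 30 livers, or 27 in clutch 6, and 6 WT pools (clutches 4 to 9) of 20 livers. Clutch 5 gave a WT pool only. The labels place dissection between 120 and 122 hpf and give no hour of the day. They state a light to dark cycle of 10:14 h, whereas the methods state 14:10 h, and the labels describe an incross of carriers where the methods describe a cross to WT fish. As a model, the hUHRF1 group is limited to one transgenic line, to livers pooled over larvae and to a transgene driven in hepatocytes. The methods state that the animals carried the transgene on one allele, while the incross given in the labels can also yield larvae with both.

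Total counts were 9064943 to 19370497 in hUHRF1 and 15285359 to 23322479 in WT pools. Expression is given as CPM, counts scaled to library size and corrected by edgeR's TMM factors, which lay between 1.12 and 1.71 in hUHRF1 and between 0.672 and 0.978 in WT pools. Clock members are compared between pools and not with each other, since no gene length enters CPM. Hepatocyte markers were abundant in every library. Their 13 genes summed to 37518 to 86386 CPM in hUHRF1 and to 121850 to 204620 CPM in WT pools, and 12 of the 13 were lower in hUHRF1 livers. All 9 exocrine pancreas markers were higher in hUHRF1 livers (1210 to 10164 CPM against 628 to 2507 CPM). Of 8 macrophage markers, 6 were tested and 4 were higher. The part of these shifts in the results was not tested. In bulk samples fewer cells of a type and less RNA per cell cannot be told apart.

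The first question was whether the clock genes differed between clutches. They did so widely, and the pools of clutch 7 stood apart in both conditions. There, clock-II was lowest and all period genes, ciarta, bhlhe40, bhlhe41 and tefa were highest. A difference between clutches was tested in the 5 clutches with both conditions, with condition in the fit (edgeR quasi-likelihood F-test, Benjamini-Hochberg over all tested genes). Of the 10 clock genes 7 were called at an adjusted p-value under 0.05, where 3.51% of all tested genes were called. The members were chosen with earlier results of these data known, and they vary together (r = 0.96 for bhlhe40 and bhlhe41, for example). Their calls are not independent, which limits every count of members given here. The fitted range over clutches had a median of 2.33 on the log2 scale over the members and of 0.89 over all tested genes.

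**Figure D1:**
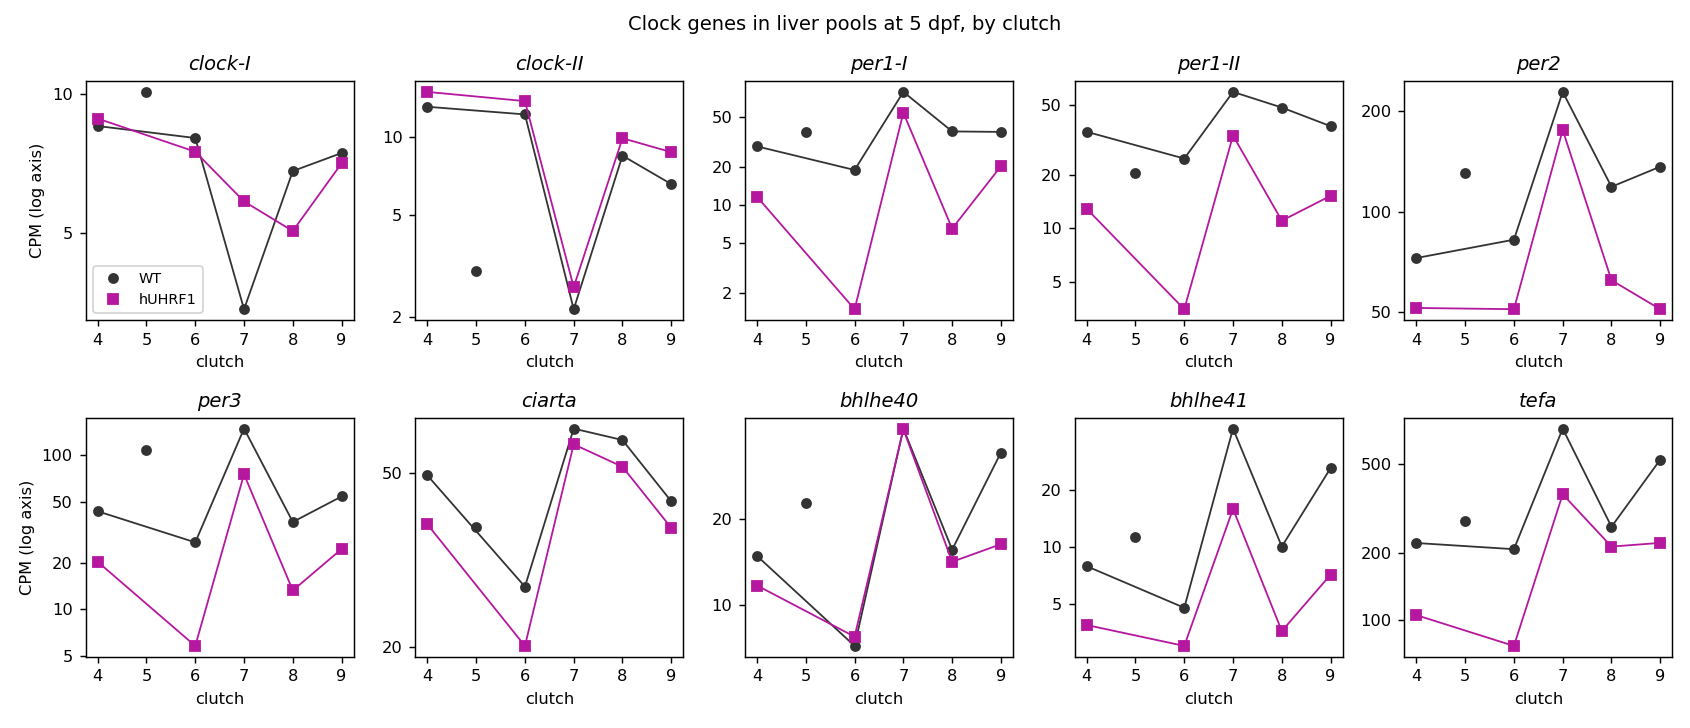
CPM of each clock gene (log axis) by clutch in WT pools (black circles) and hUHRF1 pools (magenta squares), 1 point per pool. Lines join the paired clutches of one condition to guide the eye and imply no order. Clutch 7 holds the highest value of 8 genes in both conditions, and clock-II falls to 2.14 and 2.61 CPM there.

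Among the activators, clock-II had 13.2, 3.02, 12.3, 2.14, 8.49 and 6.58 CPM in the WT pools of clutches 4 to 9. In the hUHRF1 pools of clutches 4, 6, 7, 8 and 9 it had 15.0, 13.8, 2.61, 9.93 and 8.76 CPM. Clutches 4 and 6 were thus high and clutch 7 low in both conditions, and the WT pool of clutch 5, which has no partner, was the next lowest of the WT pools. The fitted range of clock-II was 5.92-fold (adjusted p = 0.0077, edgeR). For clock-I the WT pools had 8.53, 10.1, 8.03, 3.41, 6.81 and 7.45 CPM and the hUHRF1 pools 8.86, 7.50, 5.85, 5.04 and 7.08 CPM. Its fitted range was 1.86-fold and did not pass the test (adjusted p = 0.34, edgeR).

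Of the repressors, per3 had 43.4, 108, 27.3, 149, 37.0 and 54.1 CPM in the WT pools of clutches 4 to 9. Its hUHRF1 pools had 20.4, 5.80, 75.4, 13.3 and 24.7 CPM. Clutch 7 was the highest and clutch 6 the lowest in each condition, and the WT pool of clutch 5 came next to that of clutch 7. The range of per3 over clutches was 8.11-fold (adjusted p = 0.0065, edgeR).

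Per2, the light-induced period gene, had 72.7, 131, 82.4, 228, 119 and 136 CPM in the WT pools of clutches 4 to 9. In the hUHRF1 pools it had 51.5, 51.1, 176, 62.4 and 51.1 CPM, so that 4 of these pools lay close together and clutch 7 far above them. Its range was 3.29-fold (adjusted p = 0.027, edgeR). The DEC gene bhlhe41 had 7.94, 11.4, 4.79, 42.5, 10.1 and 26.2 CPM in WT and 3.88, 3.01, 15.95, 3.60 and 7.16 CPM in hUHRF1 pools. Clutch 7 led and clutch 9 came second in both conditions, with a range of 6.75-fold (adjusted p = 0.0066, edgeR). Its relative bhlhe40 had 14.9, 22.8, 7.16, 41.8, 15.6 and 34.4 CPM in WT and 11.7, 7.71, 41.6, 14.2 and 16.3 CPM in hUHRF1 pools. In clutch 7 the pools of both conditions were nearly equal, and the range was 5.58-fold (adjusted p = 0.013, edgeR).

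The D-box activator tefa had 221, 277, 207, 718, 261 and 521 CPM in the WT pools of clutches 4 to 9 and 105, 76.5, 365, 213 and 221 CPM in the hUHRF1 pools, with a range of 4.02-fold (adjusted p = 0.019, edgeR). Ciarta moved least of the called members, with 27.5 to 63.2 CPM in WT and 20.2 to 58.2 CPM in hUHRF1 pools (range 2.57-fold, adjusted p = 0.034, edgeR). Both per1 genes missed the threshold. Per1-I had 18.9 to 78.5 CPM in WT and 1.49 to 53.7 CPM in hUHRF1 pools (range 10.4-fold, adjusted p = 0.069, edgeR), and per1-II had 20.4 to 58.9 and 3.49 to 33.4 CPM (range 4.56-fold, adjusted p = 0.085, edgeR). For both, clutch 7 was highest and clutch 6 lowest among the paired clutches in each condition, but the drop in clutch 6 was much deeper in the hUHRF1 pool.

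Much of this rested on clutch 7. Without its pools, 0 of the 10 members were called by edgeR (adjusted p from 0.053 to 0.53), with 1.43% of tested genes called. At an unadjusted p-value under 0.05 there were still 8 members, against 22.3% of tested genes, and DESeq2 called 6 members and 1689 genes without clutch 7. Without clutch 6, 3 members and 116 genes were called by edgeR. Per2 in particular spanned only 0.51 on the log2 scale without clutch 7, against 1.72 with it. The clutch 7 pools had 14176750 (hUHRF1) and 15285359 (WT) counts, inside the range of the hUHRF1 pools and the lowest of the WT pools. The TMM factor of the WT pool of clutch 7 (0.672) was the lowest of all libraries, which raises its CPM. That of its hUHRF1 pool was 1.25. The pools of clutch 6 had the highest factors of their conditions (0.978 in WT and 1.71 in hUHRF1), which lowers their CPM. With library size alone, 6 members and 1630 genes were called between clutches. The summed hepatocyte markers were highest of the WT pools in clutch 7 (204620 CPM) and second of the hUHRF1 pools (66830 CPM). Single genes differed from the sum, as fga was lowest of the WT pools there (654 CPM). Endothelial markers were highest in clutch 7 in both conditions (225 CPM in WT and 194 CPM in hUHRF1). Muscle markers were highest of all pools in the hUHRF1 pool of clutch 7 (578 CPM), whereas the WT pool there (207 CPM) was inside the range of the other WT pools. Of all tested marker genes 2 were called between clutches, the hepatocyte gene ahsg1 and the biliary gene anxa4. Their part in the clutch differences was not tested.

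The next question was how closely the pools of one clutch agreed. It was asked of the same values as the test between clutches, so its answers are not separate evidence. Among the 5 paired clutches, the one with the highest value was the same in WT and hUHRF1 livers for all 10 members, which held for 33.7% of all tested genes. The lowest clutch was the same for 8 members, against 33.8% of tested genes. Of these clutches, clutch 7 gave the highest value of 8 members and clutch 4 that of both clock genes, although the unpaired WT pool of clutch 5 held more clock-I (10.1 CPM). Of the paired clutches, clutch 6 gave the lowest value of per1-I, per1-II, per3, ciarta, bhlhe40, bhlhe41 and tefa in each condition, and the WT pool of clutch 5 was lower still for per1-II (20.4 CPM). Without clutch 7 the highest clutch was shared by 7 members, and without clutch 6 the lowest was shared by 5. The shares of all tested genes were not computed without a clutch, so these counts have no background beside them.

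**Figure D2:**
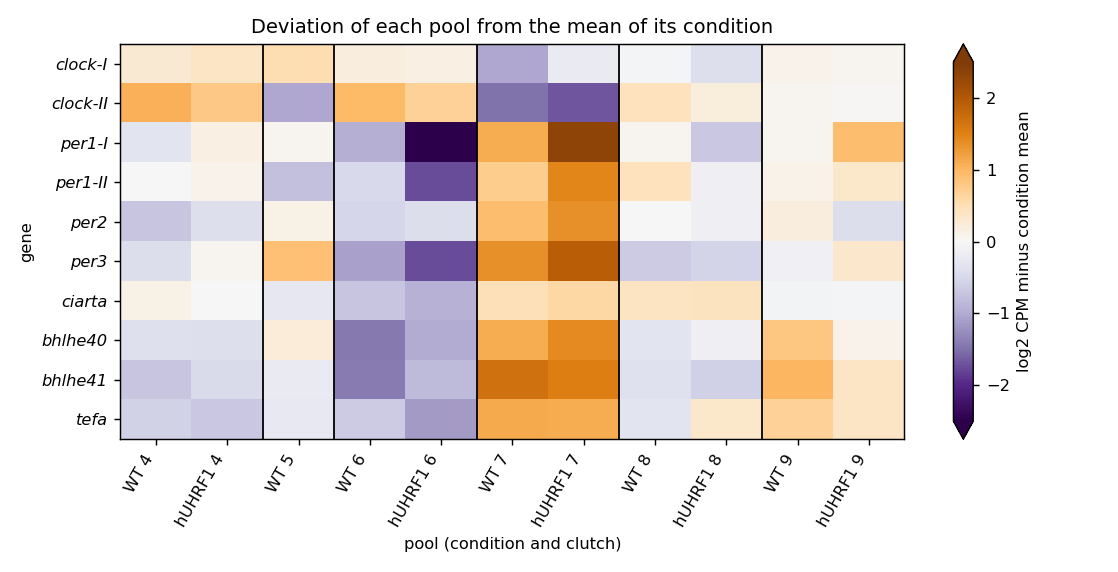
Log2 CPM of every pool relative to its condition's mean, by gene (rows) and pool (columns, grouped by clutch). Both pools of clutch 7 are high for the period genes, ciarta, bhlhe40, bhlhe41 and tefa and low for clock-II, and both pools of clutch 6 show the reverse.

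As a measure of agreement, the standard deviation of the clutch means was divided by that of the differences between the pools of a clutch. This ratio largely restates the test between clutches as a size. The ratio was above 1 for 9 of 10 members and for 28.1% of tested genes. Unrelated pools would give a ratio below 1, so a value under 1 does not by itself mark a lack of agreement. Its median was 1.95 over the members and 0.709 over all tested genes. Clock-II had the highest ratio, 10.7, since its pair differences varied by an SD of only 0.09 on the log2 scale while its clutch means varied by 1.01. In clutch 7 it had only 22 (WT) and 46 (hUHRF1) counts, which limits the precision of that pair difference and of the ratio. Its fitted range over clutches was 2.57 on the log2 scale with clutch 7 and 0.85 without it. The ratios of ciarta and bhlhe41 were 3.93 and 2.41. At the other end, per1-I and per1-II had 1.03 and 1.04, with pair differences that spread by 1.25 and 0.77, and clock-I had 0.85. Without clutch 7 the median ratio of the members was 1.28, and that of all tested genes was not computed. Across the 10 members, the deviations of the WT and hUHRF1 pools of a clutch correlated with r = 0.89, 0.67, 0.92, 0.46 and 0.08 in clutches 4, 6, 7, 8 and 9. Over all tested genes r was 0.23, 0.48, 0.35, 0.27 and 0.21, so the members agreed less than all genes in clutch 9. The 10 points of each clutch share their 2 libraries and are not independent.

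Because the count ratio of 2 genes in one library does not depend on the scaling, per3 was also set against clock-II, a pair chosen after the values were seen. Only its change between libraries is read, as the genes differ in length. In WT pools the ratio of per3 to clock-II counts was 3.30, 35.7, 2.22, 69.7, 4.36 and 8.23 in clutches 4 to 9. In hUHRF1 pools it was 1.36, 0.419, 28.9, 1.34 and 2.82 in clutches 4, 6, 7, 8 and 9. Clutches 5 and 7 were far above the others. The order of the paired clutches was 7, 9, 8, 4 and 6 in WT and 7, 9, 4, 8 and 6 in hUHRF1 livers, where clutches 4 and 8 were nearly tied. In every pair the ratio was lower in the hUHRF1 pool, by 2.41-fold (clutch 7) to 5.30-fold (clutch 6). No test was made of this ratio.

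**Figure D3:**
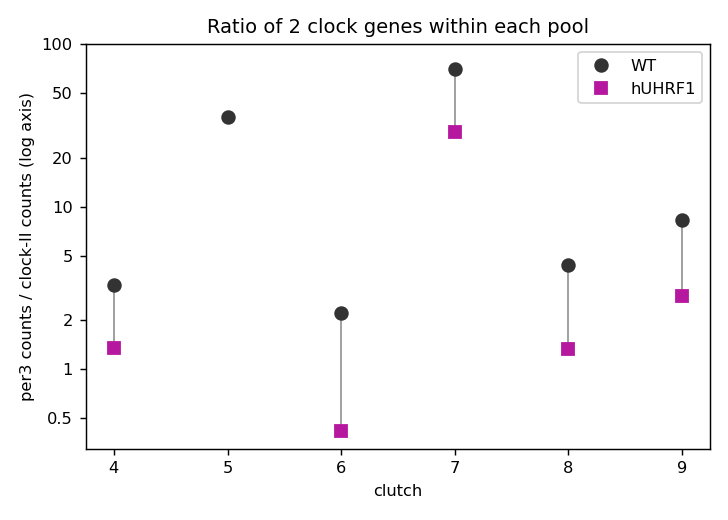
Counts of per3 divided by counts of clock-II (log axis) in each pool, by clutch. Grey lines join the WT (black) and hUHRF1 (magenta) pool of a clutch, and the hUHRF1 pool is lower in all 5 pairs.

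Clutches 4 to 6 and clutches 7 to 9 carry titles of different wording, so the earlier-numbered group was compared with the later-numbered one, with condition in the fit. Whether the wording marks a batch is not stated. The methods name both NextSeq and HiSeq instruments and do not state which of them read each library. The part of the instruments in the differences between clutches was not tested. Bhlhe41 (L2FC 1.57 for clutches 7 to 9 against 4 to 6, standard error 0.41, adjusted p = 0.038, edgeR) and tefa (L2FC 1.29, standard error 0.26, adjusted p = 0.015) were higher in clutches 7 to 9, where 8.01% of tested genes were called in either direction, 3.93% higher and 4.07% lower. Clutch 8 did not stand apart for either gene. In WT pools tefa had 261 CPM in clutch 8 and 277 CPM in clutch 5, and bhlhe41 had 10.1 and 11.4 CPM. In hUHRF1 pools bhlhe41 had 3.60 CPM in clutch 8 and 3.88 CPM in clutch 4, whereas tefa had 213 and 105 CPM. Values of the other members were 0.63 to 1.36 for the repressors and -0.53 and -0.86 for clock-I and clock-II, none of which passed the test. The pools of a clutch are not independent for this contrast. With clutch as a random block (limma-voom), tefa was the single member called (adjusted p = 0.026, limma) and 5.39% of tested genes were called. Tefa kept its call in 10 of 11 fits without a library and bhlhe41 in 3, and without the hUHRF1 pool of clutch 6 neither was called (259 genes called). Each of these fits left out a single pool, so clutch 7 was never left out as a whole. With the WT pools alone and with the hUHRF1 pools alone, 0 members and 0 and 7 genes were called. The effect of hUHRF1 did not differ detectably between the groups of clutches for any member. The interaction was called for 0 of 15838 genes (0%) by edgeR, with 604 genes and 0 members at an unadjusted p-value under 0.05, and DESeq2 called 2 genes and 0 members.

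Between hUHRF1 and WT livers under TMM scaling, the period genes, bhlhe41 and tefa were lower in hUHRF1 pools of every clutch, and the clock genes were not. Tested by condition alone, 1 of 10 members was called, per1-II. Over all genes, 29.1% were called and 14.6% were called lower, so that this count is below the background. The count was 6 without the hUHRF1 pool of clutch 7 (4167 genes called), 2 without the WT pool of clutch 6 (4504 genes called) and otherwise 0 or 1. Members had a median L2FC of -0.81, against 0.05 over all tested genes. For none of the members did the hUHRF1 and WT pools separate completely, as they did for 17.1% of tested genes. With clutch as a replicate block, the 6 members per1-I, per1-II, per2, per3, bhlhe41 and tefa were called lower and 0 higher, against 17.9% and 17.1% of tested genes. The hUHRF1 pool was below its WT sibling in all 5 clutches for 7 members, the 6 and ciarta, which held for 20.9% of tested genes under TMM scaling. Clock-II was higher in all 5, as were 20.8% of tested genes. With a term for the clutch groups, 3 members were called (per1-II, bhlhe41 and tefa, against 34.4% of tested genes). Within clutches 4 to 6 tefa alone was called (10.4% of tested genes) and within clutches 7 to 9 no member was (0 of 10, against 16.4% of tested genes, edgeR).

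Per1-II was the member called in both fits. Its mean was 37.5 ± 14.4 CPM in WT (SD, n = 6) and 15.2 ± 11.1 CPM in hUHRF1 (SD, n = 5), an L2FC of -1.30 with a standard error of 0.44 (adjusted p = 0.039, edgeR). The WT pools had 35.1, 20.4, 24.8, 58.9, 48.1 and 37.7 CPM in clutches 4 to 9 and the hUHRF1 pools 12.9, 3.49, 33.4, 11.05 and 15.3 CPM. The groups overlapped only through the hUHRF1 pool of clutch 7. In pairs the decrease was -0.82 (clutch 7) to -2.78 (clutch 6) on the log2 scale, and the blocked L2FC was -1.68 (adjusted p = 0.0010, edgeR). The unpaired call was lost without the hUHRF1 pool of clutch 4, 8 or 9 or the WT pool of clutch 4, 7, 8 or 9 (adjusted p up to 0.082, edgeR). The blocked call was made in all 5 fits without one clutch, as it was for the other 5 members called with the block.

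The value of per1-I was 40.1 ± 20.3 CPM in WT (SD, n = 6) and 18.7 ± 20.7 CPM in hUHRF1 livers (SD, n = 5), with pair differences of -1.32, -3.56, -0.55, -2.54 and -0.90 on the log2 scale in clutches 4, 6, 7, 8 and 9. It was called with the block (L2FC -1.72, standard error 0.40, adjusted p = 0.0085, edgeR) and not without it (L2FC -1.10, adjusted p = 0.21). Clutches 6 and 8 carried its largest drops, as for per1-II. Per3 had 69.8 ± 48.2 against 27.9 ± 27.5 CPM, and its pair differences lay between -2.21 and -0.98. The blocked L2FC of per3 was -1.37 ± 0.19 (standard error) with an adjusted p of 5.4e-04 in edgeR, and the unpaired one -1.32 (adjusted p = 0.11).

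For bhlhe41, with 17.1 ± 14.5 CPM in WT and 6.72 ± 5.41 CPM in hUHRF1 pools, the differences were -1.01, -0.65, -1.41, -1.45 and -1.86 in clutches 4, 6, 7, 8 and 9 (blocked L2FC -1.30, adjusted p = 8.1e-04, unpaired adjusted p = 0.094, edgeR). Tefa had 368 ± 207 and 196 ± 114 CPM, with differences from -1.44 to -0.29 (blocked L2FC -1.01, adjusted p = 0.0018, unpaired adjusted p = 0.12, edgeR). Per2 had 128 ± 55.4 and 78.3 ± 54.6 CPM, with differences from -1.41 to -0.38 (blocked L2FC -0.78, adjusted p = 0.0059, unpaired adjusted p = 0.17, edgeR). Under TMM scaling all 3 genes were lower within every clutch, while their pools overlapped between the conditions when clutches were set aside. With library size alone, only 1 member was lower in all pairs.

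The remaining 4 members passed the test in neither fit. Ciarta differed by -0.12 to -0.45 in the pairs (blocked L2FC -0.27, standard error 0.13, adjusted p = 0.12, edgeR). Bhlhe40 was lower in 4 of 5 pairs, from 0.11 in clutch 6 to -1.07 in clutch 9 (blocked L2FC -0.29, standard error 0.18, adjusted p = 0.25, edgeR). Clock-II had 7.62 ± 4.59 CPM in WT and 10.0 ± 4.91 CPM in hUHRF1 pools, and its pair differences lay between 0.17 and 0.41 (blocked L2FC 0.25, standard error 0.15, adjusted p = 0.23, edgeR). Clock-I had 7.39 ± 2.25 and 6.87 ± 1.48 CPM, with pair differences of both signs, from -0.42 to 0.76 (blocked L2FC 0.03, standard error 0.20).

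**Figure D4:**
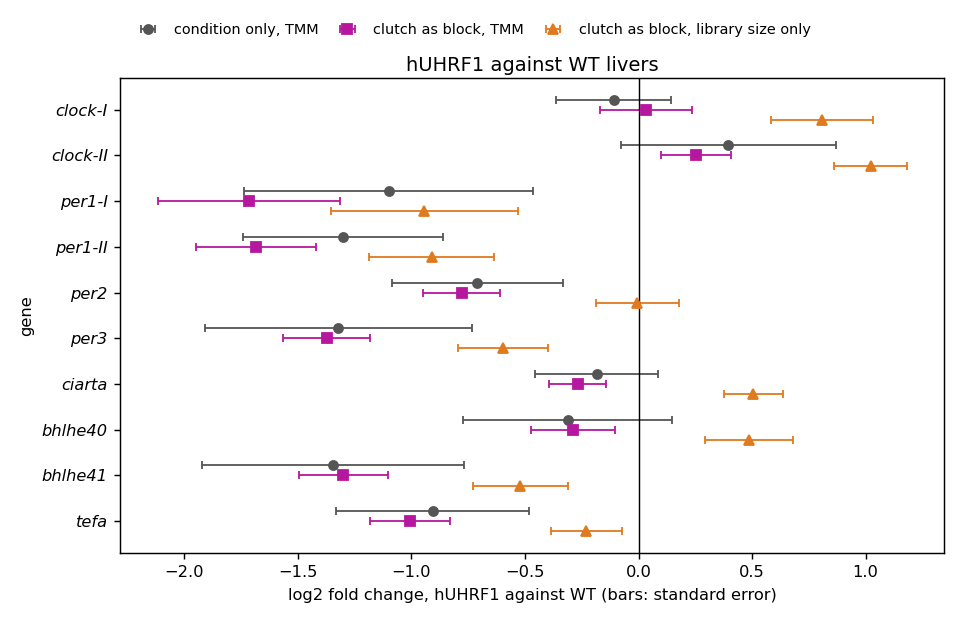
Log2 fold change of hUHRF1 against WT livers for each clock gene with condition only (grey circles), with clutch as a block (magenta squares) and with clutch as a block and library size in place of TMM (orange triangles). Bars are standard errors, which are narrower with the block for every gene. Library size alone moves all genes to the right, with per1-I, per1-II, per3, bhlhe41 and tefa still below 0 and per2 close to it. Clock-I, clock-II, ciarta and bhlhe40 are then above 0.

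The direction of several members depended on the scaling. With library size alone in place of TMM, the median L2FC of all tested genes rose from 0.06 to 0.84 with the block, and 92.3% of called genes were higher, against 48.9% with TMM. On that scale per1-II (L2FC -0.91, adjusted p = 0.015, edgeR), per3 (L2FC -0.60, adjusted p = 0.023) and bhlhe41 (L2FC -0.52, adjusted p = 0.0499) were still called lower, as were 4.98% of tested genes. Per1-I (L2FC -0.94, adjusted p = 0.066) and tefa (L2FC -0.23) were not called, and per2 was close to 0 (L2FC -0.0047). Clock-II, clock-I, ciarta and bhlhe40 were called higher, with L2FCs of 1.02, 0.81, 0.51 and 0.49, as were 59.6% of tested genes. In the pairs, 1 member was then lower in all 5 clutches (4.84% of tested genes) and 3 were higher in all 5 (56.9% of tested genes).

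The other genes of the pathway were taken from 5 lists of 60 IDs, of which 53 were tested. Their counts are to be read against the shares of all tested genes that were called, 14.5% higher and 14.6% lower in hUHRF1 livers and 3.51% between clutches. In the core loop list, 4 of 20 tested genes were called between clutches. The cryptochrome family holds repressors of CLOCK and BMAL. Whether cry2 and cry3a, both among these 4 genes, act in this way was not examined. Cry2 had 93.1 and 61.2 CPM in the WT and hUHRF1 pools of clutch 7, the highest of each condition (range 1.57 on the log2 scale, adjusted p = 0.036, edgeR). Rorab, of the nuclear receptor family that activates bmal genes in mammals, also peaked in clutch 7, with 19.4 and 21.2 CPM, where all other pools had 4.19 to 12.6 CPM (adjusted p = 0.022). Cry3a was lowest there, with 61.0 and 52.1 CPM against 122 CPM or more in every other pool (adjusted p = 0.024). Bmal2, a partner of CLOCK, was lowest in clutch 7 in both conditions, at 1.36 and 17.8 CPM (adjusted p = 0.0497), and this call was lost whenever a clutch was left out.

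Between the conditions, 1 core loop gene was called higher and 1 lower. Bmal2 had 7.01 ± 5.36 CPM in WT (SD, n = 6) and rose to 33.9 ± 14.0 CPM in hUHRF1 (SD, n = 5), with every hUHRF1 pool above every WT pool (L2FC 2.26, standard error 0.51, adjusted p = 0.0049, edgeR). One cry1 gene, called here cry1-II (ENSDARG00000045768), fell from 110 ± 25.2 to 53.0 ± 22.4 CPM (L2FC -1.05, standard error 0.27, adjusted p = 0.0093). With library size alone its L2FC was -0.29 (adjusted p = 0.28), while that of bmal2 was 3.03. The other cry1 gene, cry1-I (ENSDARG00000011583), had an L2FC of -1.05 and was not called by condition alone (adjusted p = 0.24, edgeR). It was called lower with the block (L2FC -1.69, adjusted p = 0.0066, edgeR). With clutch as block, 4 of 20 core loop genes were called higher and 5 lower, against 17.1% and 17.9% of all tested genes. The bmal1 genes were named here after their values were seen. In the WT pools both were lowest in clutch 7, at 1.66 CPM (ENSDARG00000006791) and 2.82 CPM (ENSDARG00000035732). In the hUHRF1 pools the first was lowest in clutch 7 (6.64 CPM) and the second in clutch 8 (4.08 CPM, with 4.32 CPM in clutch 7). Neither was called between clutches (adjusted p = 0.12 and 0.066, edgeR). With the block, the first was called higher in hUHRF1 livers (L2FC 0.88, adjusted p = 0.018, edgeR). The second was called lower in clutches 7 to 9 than in clutches 4 to 6 (L2FC -1.09, adjusted p = 0.014, edgeR).

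Of 7 tested PAR bZIP and nfil3 factors, 2 were called lower in hUHRF1 livers, 0 higher and 0 between clutches (adjusted p of 0.053 or more, edgeR). Dbpb, which encodes a PAR bZIP factor like Tef, fell from 112 ± 40.6 to 30.9 ± 12.5 CPM without overlap of the pools (L2FC -1.86, standard error 0.34, adjusted p = 0.0012, edgeR), and hlfa fell from 9.89 ± 1.93 to 6.31 ± 0.69 CPM (L2FC -0.65, adjusted p = 0.018). With library size alone dbpb was at -1.09 and hlfa at 0.15, above 0.

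Among 5 genes that light induces in zebrafish cells, 4 were lower in hUHRF1 livers and 0 higher. They encode proteins that repair damaged DNA or flavoproteins related to photolyases. Cry-dash fell from 94.7 ± 25.9 to 35.8 ± 7.55 CPM (L2FC -1.40, standard error 0.22, adjusted p = 4.3e-04, edgeR), with 65.3 to 127 CPM in WT and 27.9 to 46.4 CPM in hUHRF1 pools. Cry5, the 6-4 photolyase gene, fell from 76.6 ± 23.3 to 30.9 ± 9.93 CPM (L2FC -1.31, adjusted p = 0.0017) and the glycosylase gene neil1 from 29.1 ± 4.00 to 12.2 ± 3.31 CPM (L2FC -1.26, adjusted p = 3.6e-04). The pools of these 3 genes did not overlap between the conditions. Ddb2, which encodes a sensor of UV damage, had an L2FC of -0.88 (adjusted p = 0.029) and was the gene of this list called between clutches, highest in clutch 7 at 66.5 and 35.9 CPM (adjusted p = 0.030). With library size alone the L2FCs of cry-dash, neil1, cry5 and ddb2 were -0.61, -0.49, -0.51 and -0.08, and those of cry5 and ddb2 no longer passed the test. The call of ddb2 between conditions was made in 5 of 11 fits without a library, and its call between clutches in 2 of 5 fits without a clutch.

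**Figure D5:**
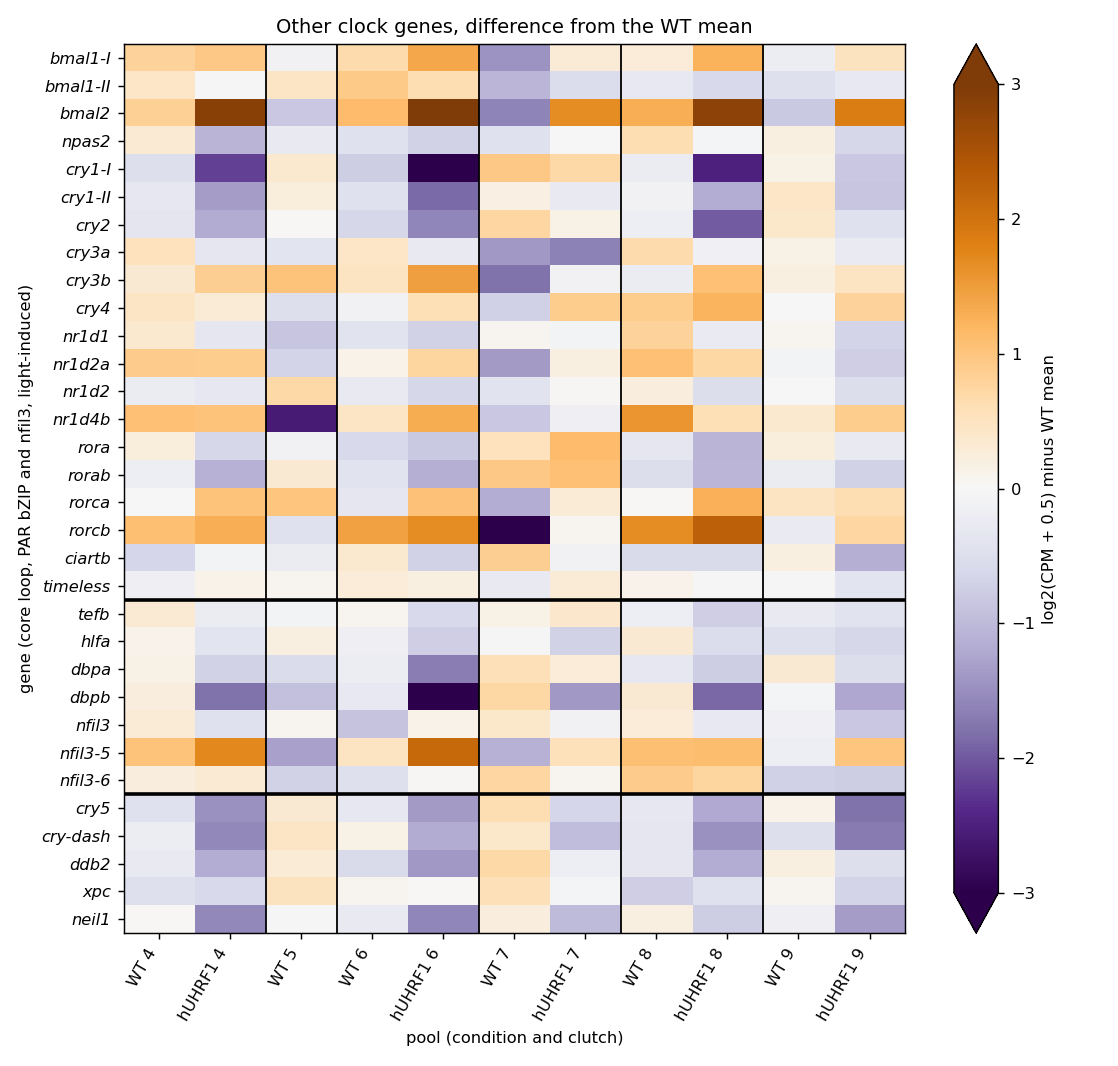
Difference of each pool from the WT mean in log2(CPM + 0.5) for tested genes of the core loop (top), PAR bZIP and nfil3 factors (middle) and light-induced genes (bottom), with colours saturating at the ends of the scale. Genes of one symbol are numbered by their ID. Bmal2 is high in all hUHRF1 pools, dbpb, cry5, cry-dash and neil1 are low, and cry2 and rorab are highest of each condition in the pools of clutch 7.

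Of 11 tested kinases and ubiquitin ligases that act on period and cryptochrome proteins, 3 were lower in hUHRF1 livers, 0 were higher and 0 were called between clutches. They were the kinase gene gsk3b (L2FC -0.72, adjusted p = 0.020, edgeR) and the F-box genes fbxw11 (L2FC -0.85, adjusted p = 0.011) and fbxl3b (L2FC -0.76, adjusted p = 0.0493), the last of which kept its call in 2 of 11 leave-one-out fits. Under scaling by library size alone gsk3b was at 0.09, fbxw11 at -0.05 and fbxl3b at 0.03. Of 10 tested genes listed as clock outputs, 4 were lower and 2 higher. Dio1, a thyroid hormone deiodinase gene, fell from 137 ± 40.7 to 39.8 ± 9.15 CPM (L2FC -1.79, adjusted p = 1.5e-04, edgeR) and the transcription factor gene klf9 from 173 ± 67.1 to 69.4 ± 21.999 CPM (L2FC -1.32, adjusted p = 0.0035). The kinase gene wee1 (L2FC 0.97, adjusted p = 0.022) and txnip-I (ENSDARG00000036107, L2FC 1.36, adjusted p = 0.015) rose. These L2FCs are under TMM scaling. Library size alone raised the median unpaired L2FC of all tested genes from 0.05 to 0.83, so those of dio1, klf9, wee1 and txnip-I also depend on the scaling. Usp2b, a deubiquitinase gene, was called between clutches, with 37.6 and 25.8 CPM in clutch 7 and 8.96 to 29.6 CPM elsewhere (adjusted p = 0.034). So was txnip-II (ENSDARG00000070000, adjusted p = 0.042), which had 35.7 CPM in the WT pool of clutch 7 and 0.662 to 8.41 CPM in the other WT pools. In the hUHRF1 pools it had 44.3 CPM in clutch 7, close to the 42.8 CPM of clutch 6, and 7.84 to 14.8 CPM in the others. Without single clutches, usp2b kept the call in 1 of 5 fits, txnip-II and cry2 in 2, rorab in 3 and cry3a in 4.

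Genes outside the members were ranked by the likeness of their deviations from the condition means to those of 5 members over the 11 libraries, among 9225 named genes with a mean log2 CPM of at least 2. Per1-I was most like cry1-I (ENSDARG00000011583; r = 0.97), followed by cipcb (r = 0.95) and slc38a5b (r = 0.93). Cipcb encodes a protein whose mammalian relative binds CLOCK. The cry1-I gene had 46.6 and 39.2 CPM in the clutch 7 pools of WT and hUHRF1 and fell to 13.9 and 1.46 CPM in clutch 6. Per1-II was most like nup54 (r = 0.96), slc16a13 (r = 0.94) and epas1 (r = 0.93), and tefa like mipepb, slc51a and gatb (r = 0.97, 0.96 and 0.96). Clock-II was most like robo2 and esr2 (both r = 0.95) and ugt2b1 (r = 0.94), and clock-I like rgmd, chd1l and ube2d1b (r = 0.96, 0.94 and 0.93). These values describe 11 libraries from 6 clutches, and each is the highest found among all candidates.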

How the data were processed

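RNA-seq counts of 11 libraries (5 hUHRF1, 6 WT) were used. The deposited values are whole-number counts per Ensembl gene, not normalized, which the authors obtained with HTSeq from HISAT2 alignments on the GRCz10 build. The study's own test was DESeq2 by condition. The annotation release and the strand setting of the counting are not given in the sources used here. No 2 libraries were identical. Genes were kept with filterByExpr by condition (minimum count 10, minimum total 15), scaled with TMM and tested in R 4.3.3 with edgeR 4.0.16 (quasi-likelihood, Benjamini-Hochberg over all tested genes, called at an adjusted p-value under 0.05). DESeq2 1.42.0 and limma 3.58.1 served as alternatives. Standard errors were taken as the L2FC over the square root of F. Values on the log2 scale used a prior count of 2. The test between clutches and the block used the 10 libraries of paired clutches, with TMM factors of all 11.

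Symbols were matched to IDs in any case and otherwise without the suffix of duplicated genes. A symbol was known for 26269 IDs, and 8 of 70 listed symbols found none. No sequence tables were given, so a planned search for E-boxes and D-boxes was not made. The members and lists were chosen with earlier results of these data known. Besides the members, the genes named are the called genes of each list, at most the 4 with the smallest adjusted p-values per test, and the 3 genes most like each per1 gene, each clock gene and tefa. The planned references per1b and clocka could not be told from their copies, so both copies were used. The clutch number is stated in the labels and marks a shared clutch. Over all tested genes, deviations of the pools of a clutch from their condition means correlated between 0.21 and 0.48. Procedures were tested on simulated data. Each pool is a separate sample of livers. In the fits with clutch as a term, p-values rest on the spread left within clutch pairs. In the other edgeR fits they rest on the spread between pools, where the pools of a clutch are not independent. Depth was 9064943 counts or more in each library, and the lowest count of a member was 22.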

Additional observations from a re-analysis of the deposited data

Results flagged for a closer look

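Of the 20 sets of pools (10 genes in 2 conditions), 4 held a pool far from the others by Dixon's criterion at its 95% value. The criterion was applied to CPM, where a high value stands out more than it does on the log2 scale. It was not applied to log2 values, so the flags and their direction hold for CPM only. Chance gives such a pool for about 1 in 20 independent sets of normally distributed values, which CPM need not be. These sets are not independent, since correlated genes were read from the same libraries, so the count cannot be set against that rate. All 4 flagged values were from pools of clutch 7 and all were high. In the WT pools, per1-I had 78.5 CPM in clutch 7, with 18.9 to 38.2 CPM in the other 5. In the hUHRF1 pools, clutch 7 had 176 CPM of per2 (others 51.1 to 62.4), 75.4 CPM of per3 (others 5.80 to 24.7) and 41.6 CPM of bhlhe40 (others 7.71 to 16.3). The partner pool of clutch 7 was the highest of its condition for each of these genes.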

How the results depend on the processing

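Between hUHRF1 and WT livers, 4612 genes and 1 member were called in the test by condition. The counts of genes were 8860 with library size alone, 10232 with library size alone and clutch as block, 1784 within clutches 4 to 6 and 2541 within clutches 7 to 9. Members called were 3 with DESeq2 (5416 genes) and 3 with a term for the clutch groups (5444 genes). They were 0 within clutches 7 to 9 and 0 to 6 leaving out each library (3881 to 4504 genes). With clutch as a replicate block they were 6, all lower (5555 genes). They were also 6 with the block and DESeq2's size factors (5562 genes) or without any one clutch (4254 to 4996 genes). With the block and library size alone 7 members were called, 3 lower and 4 higher.

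The test between clutches gives a range without a sign, so no direction could change there. Between the groups of clutches only members were checked, and none changed direction. Directions did change between hUHRF1 and WT. With library size alone, in the unpaired and the blocked fit, clock-I was at 0.68 and 0.81, ciarta at 0.58 and 0.51, bhlhe40 at 0.48 and 0.49, cry3a at 0.19 and 0.17, rorab at 0.39 and 0.23, hlfa at 0.15 and 0.18, gsk3b at 0.085 and 0.066, fbxl3b at 0.034 and 0.12 and usp2b at 0.46 and 0.48, and per2 at 0.080 in the unpaired fit. Clock-I was also above 0 with the replicate block (0.033), with the block and DESeq2's size factors (0.00979), within clutches 7 to 9 (0.0059), and in 4 of 5 blocked fits without a clutch (0.021, 0.070, 0.14 and 0.052 without clutches 4, 6, 8 and 9). Leaving out each library put clock-I between -0.25 and 0.0043.

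Between clutches, 556 genes were called, against 1630 with library size alone, 2309 with no filter, 2027 with DESeq2 and 116 to 621 without one clutch, and members called without one clutch were 0 to 7 (main value 7). Between the groups of clutches, 1268 genes and 2 members were called, against 2055 genes with library size alone and 2092 genes and 5 members with DESeq2. With no filter 1083 genes and 4 members were called, and with the random block 853 genes and 1 member. Leaving out a library gave 259 to 1288 genes and 0 to 3 members, the WT pools alone 0 and 0, and the hUHRF1 pools alone 7 genes and 0 members. DESeq2 called 2 genes for the interaction. Without one clutch, the shared lowest clutch held for 5 to 9 members, the shared highest for 7 to 10, and the median ratio was 1.28 to 2.76. With library size alone, a setting chosen after seeing the data, these values were 6, 9 and 1.71. The same values were not computed over all tested genes. The fits with the block and another scaling or without a clutch were chosen after seeing the data. The causes of these shifts were not tested. The lowest counts of clock-II, 22 to 46 in 3 pools, limit its precision there.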
